A study of Mus musculus with 8 samples.

Results

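Messenger RNA of 8 mouse retina samples was sequenced, and 38 genes of vessel wall, cell junction and barrier were followed among the 25477 genes of the count table. They were listed by symbol for their known roles, by a rule that uses no measured value but with earlier results of these data known: 12 genes of tight junctions, 9 of endothelial identity, 5 of transport and caveolae, 3 transcription factors, 5 of the angiopoietin-Tie pathway and 4 of vessel sprouting. All 38 were found. A filter on low counts kept 36, and Esm1 and Aplnr were too low to test. There are 4 samples of PD-L1 knockout genotype and 4 labelled control (WT in their titles), and the titles of all 8 name choroidal neovascularization (CNV), the growth of vessels from the choroid towards the retina. Not given in the labels are the strain, the age, which cells lack PD-L1, how CNV was induced and how many animals stand behind a sample. The p-values therefore measure only the spread between samples, which may be technical.

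Endothelial cells line every vessel, and in the retina they form the inner blood-retinal barrier. Neighbouring cells are sealed by tight junctions, made of claudins, occludin and JAM proteins that bind scaffolds such as ZO-1, and by adherens junctions built on VE-cadherin. Another, outer barrier is formed by the tight junctions of the retinal pigment epithelium, so several junction genes are made by both tissues, and some also by neurons and glia. Angiopoietin 1 activates the receptor Tie2 and stabilises vessels, while angiopoietin 2 mostly opposes it when vessels leak or sprout.

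Of the 36 genes tested, 3 were higher in the knockout (Vwf, F11r and Cd34) and none was lower. Their log2 fold changes, knockout over control, were 1.58, 0.74 and 0.66. That is 8.33% of the genes tested, against 1.20% of all 16861 genes called higher and 1.35% called lower, together 2.55% (edgeR, adjusted p under 0.05). At an unadjusted p under 0.05, 13 were higher and 1 (Jam2) was lower, where 21.3% of all genes passed in either direction. DESeq2 called 8 higher and none lower, against 3.67% and 4.59% of all genes. Among all 36, 28 values were positive, with a median log2 fold change of 0.47 beside -0.0011 over all genes, of which 49.8% were positive. The 5 members of highest length-scaled level, Jam2, Cav1, Cldn12, Tjp1 and Jam3, lay between -0.19 and 0.03. The calls rested on all but 1 library: Vwf, F11r and Cd34 each missed the threshold when any of the knockouts or controls 1 to 3 was left out (adjusted p up to 0.160, 0.110 and 0.162). Without control 4, 12 members were called higher and none lower, where 10.5% of all genes were called higher and 8.18% lower. In whole retina, more endothelial cells and more RNA per endothelial cell cannot be told apart, nor fewer cells and less RNA per cell.

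**Figure D1:**
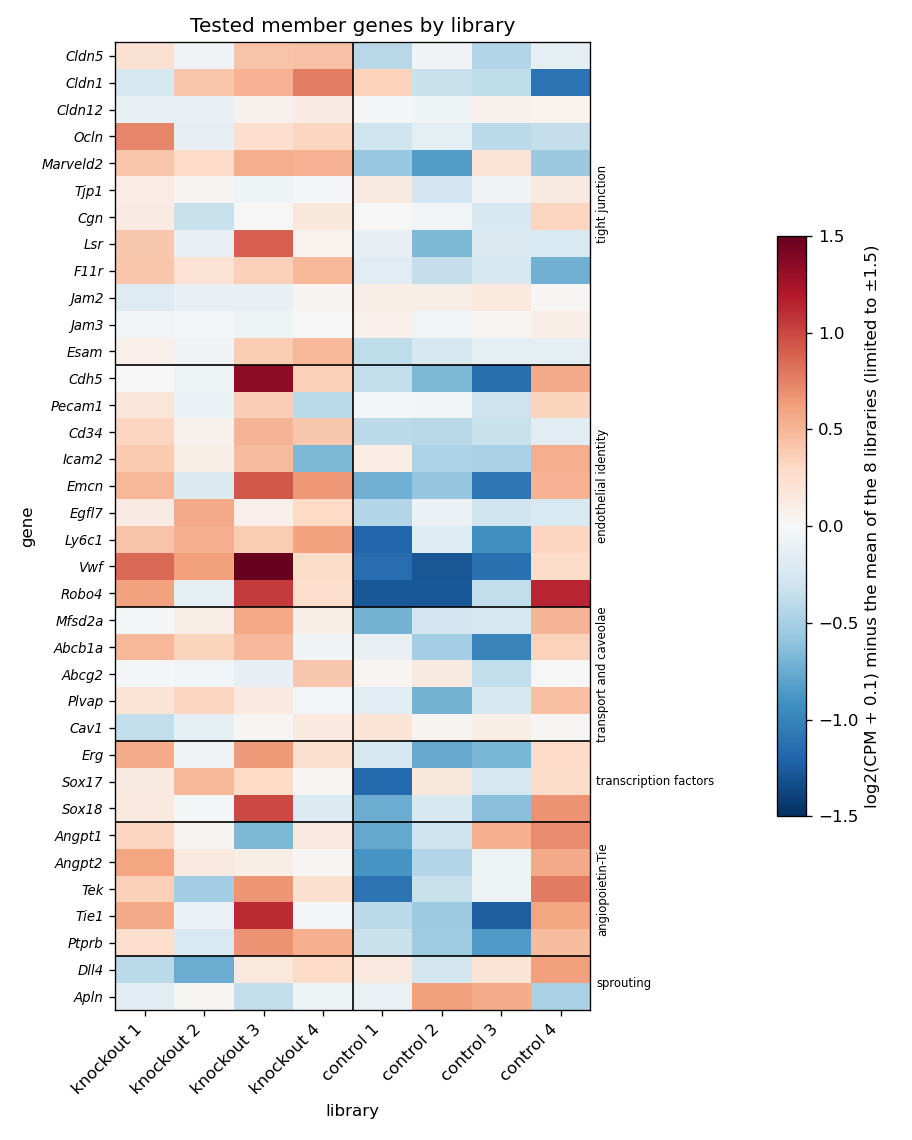
Each row is 1 of the 36 tested genes and each column 1 library; colour is log2(CPM + 0.1) minus the mean of the 8 libraries, limited to 1.5 in either direction, and black lines separate the roles and the groups. In most rows of the endothelial identity and angiopoietin-Tie blocks control 4 is red where controls 1 to 3 are mostly blue, with Cd34 and Egfl7 as exceptions.

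The libraries held 31743404 to 36438248 counts, so 1 count equals 0.0280 to 0.0314 CPM, the unit of counts scaled to library size. Cd274, the gene of PD-L1, had 9 to 15 counts in the knockouts and 117 to 165 in the controls (log2 fold change -3.73, SE 0.27, edgeR adjusted p = 1.57e-05; p = 0.0286 in a two-sided exact permutation test, the lowest of 70 arrangements). Control 4 stood apart from controls 1 to 3 on the first principal component of all genes (-6.95 against 17.67 to 45.06, knockouts -28.14 to -20.28). It lay nearer the knockouts than the other controls did, so leaving it out can widen differences by construction. Genes called higher then went from 203 to 1806, and genes called lower from 227 to 1403. Values and calls without control 4 are therefore given as a description. Lens genes summed to 1913 to 6609 CPM in knockout 3 and controls 2 and 3 and to 4.66 to 50.8 CPM in the other libraries. Without those 3 libraries, 3 knockouts were left against controls 1 and 4, and 7 of 17351 genes were called higher and 8 lower. No member was among them, with log2 fold changes of 0.81 for F11r, 0.55 for Cd34 and 0.89 for Vwf (adjusted p = 0.436, 0.628 and 0.641), and the values of Tjp1, Cdh5, Pecam1, Icam2, Robo4, Sox18, Angpt1, Tek and Apln changed sign. Xist was at 2732 to 5152 CPM and the Y-linked Eif2s3y at no more than 0.188 CPM in all 8 libraries, while Kdm5d, also Y-linked, was at 13.1 to 27.2 CPM in the knockouts and at no more than 0.126 CPM in the controls. The endothelial markers Cldn5 and Pecam1 were present in every library, at 4.25 to 7.92 and 4.69 to 8.09 CPM.

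Scaled to gene length by the authors (FPKM, counts per length of gene and per library total), the members spanned a wide range of levels. Over the 8 libraries Jam2 was highest at a mean of 39.7 FPKM, followed by Cav1 at 26.8, Cldn12 at 20.7 and Tjp1 at 16.7 FPKM. Another 13 genes lay from 1 to under 10 FPKM, led by Jam3 at 8.74, Esam at 5.30 and Cldn5 at 4.22 FPKM, and 21 lay under 1 FPKM. Cdh5, the defining adherens junction gene of endothelium, was at 0.511 FPKM, Tie1 at 0.439 and Erg at 0.218 FPKM. For 33 of the 37 neighbours in this order the ranges over the 8 libraries overlapped. The 4 pairs that did not were Jam2 over Cav1, Cldn12 over Tjp1, Tjp1 over Jam3 and Jam3 over Esam.

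**Figure D2:**
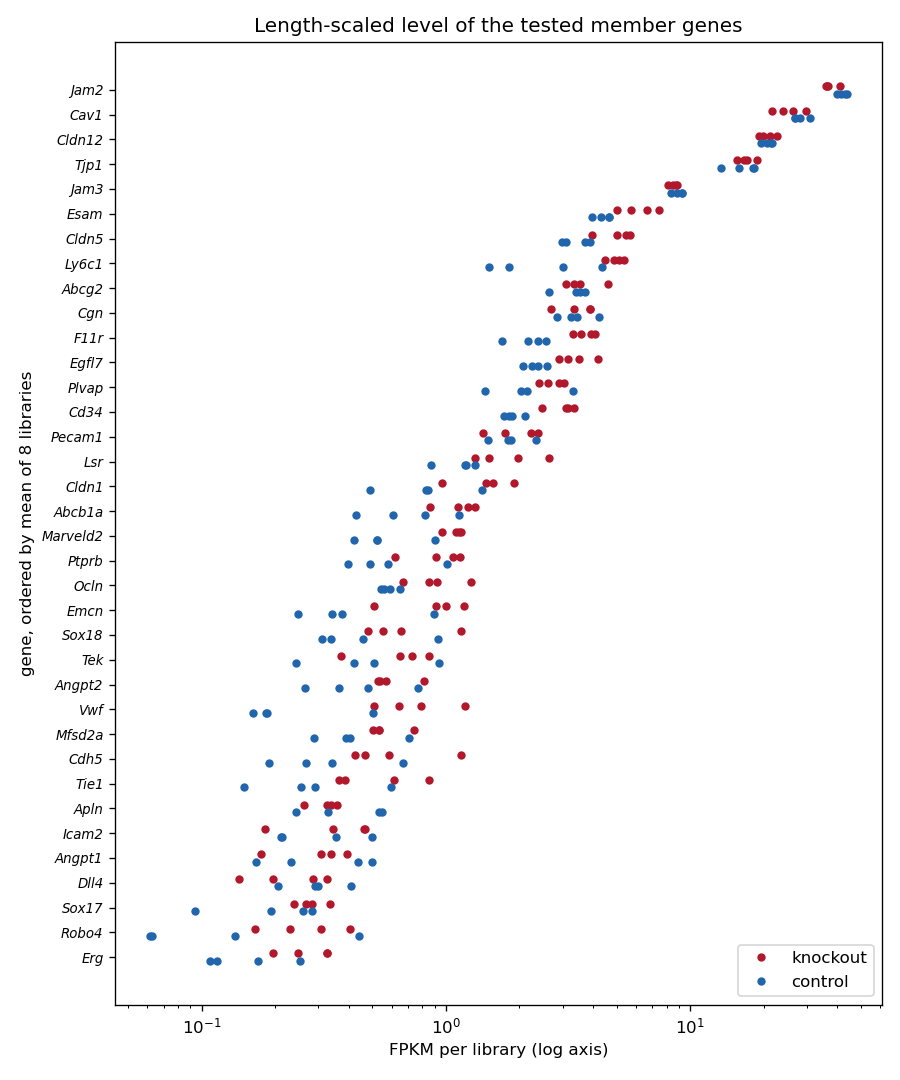
Points are the FPKM of each of the 36 tested genes in each library on a log axis, knockouts in red and controls in blue, with genes ordered by the mean of 8 libraries. The 4 genes of 10 FPKM or more (Jam2, Cav1, Cldn12, Tjp1) show the 2 groups intermingled or the knockouts slightly lower, and the genes under 1 FPKM scatter widely.

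Of the 12 genes of tight junctions only F11r passed the test, upwards. F11r (Entrez gene 16456, GRCm38.p6 chromosome 1, 171437561 to 171464593) encodes JAM-A, an immunoglobulin-type adhesion protein of tight junctions that is also found on leukocytes and platelets. It was at 9.41, 8.20, 9.04 and 10.01 CPM in knockouts 1 to 4 and at 6.33, 5.47, 5.98 and 4.23 CPM in controls 1 to 4. Every knockout exceeded every control by a clear gap, and control 4 was the lowest of the 8. The means were 9.17 ± 0.756 and 5.50 ± 0.918 CPM (SD, n = 4 each), with a log2 fold change of 0.74 (adjusted p = 0.034, SE 0.16), and of 0.63 without control 4 (adjusted p = 0.00932).

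The groups overlapped for the other JAM genes. Jam2, which encodes JAM-B, was at 175, 185, 185 and 205 CPM in the knockouts and at 214, 213, 223 and 202 CPM in the controls. The groups overlapped only through control 4, which was below knockout 4, and the log2 fold change was -0.19 (adjusted p = 0.216, SE 0.08). Jam3, encoding JAM-C, differed little, at 33.8 to 35.5 CPM in the knockouts and 34.7 to 38.2 CPM in the controls (log2 fold change -0.08, adjusted p = 0.588). Of the exonic bases of Jam3, 36.2% also lie in a gene on the opposite strand, and whether the counting used strand is not stated. Esam, a related adhesion protein largely of endothelium and platelets, was at 10.2, 9.30, 12.6 and 13.7 CPM against 7.34, 8.14, 8.69 and 8.67 CPM. Its groups did not overlap and control 4 lay among the controls, but the change of 0.48 (SE 0.15) missed the threshold (adjusted p = 0.102).

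Claudins form the seal itself. Cldn5, the main claudin of endothelium at neural barriers, was at 6.84, 5.62, 7.90 and 7.92 CPM in the knockouts and at 4.36, 5.62, 4.25 and 5.27 CPM in the controls. Knockout 2 and control 2 had nearly the same value, so the groups touched, and the log2 fold change was 0.54 (adjusted p = 0.111, SE 0.17; adjusted p = 0.044 without control 4). Cldn1, a claudin of many epithelia, overlapped between groups at 3.00 to 6.12 and 1.60 to 4.55 CPM (log2 fold change 0.71, adjusted p = 0.203, SE 0.30), with control 4 lowest. Cldn12, a claudin that lacks the usual binding motif for ZO proteins, was at 81.0 to 95.4 and 84.0 to 92.1 CPM, with a log2 fold change of -0.02 (SE 0.08).

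None of Marveld2, Lsr and Ocln passed the test. Marveld2, encoding tricellulin of the 3-cell corner, was at 3.59, 3.27, 3.92 and 3.86 CPM in the knockouts and at 1.76, 1.45, 3.08 and 1.78 CPM in the controls. Control 3 was close to the knockouts and control 4 was not (log2 fold change 0.86, adjusted p = 0.0864, SE 0.25). Lsr, encoding angulin-1, which recruits tricellulin, was at 4.13, 2.87, 5.85 and 3.23 CPM against 2.85, 1.92, 2.65 and 2.63 CPM (log2 fold change 0.68, adjusted p = 0.157, SE 0.25). Knockout 2 exceeded control 1 only narrowly, and 44.7% of the exonic bases of Lsr are shared with opposite-strand genes.

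Ocln, encoding occludin, a tetraspan protein of the same MARVEL family as tricellulin, was at 5.17, 2.81, 3.67 and 3.86 CPM against 2.48, 2.80, 2.31 and 2.37 CPM. The lowest knockout was just above the highest control (log2 fold change 0.64, adjusted p = 0.133, SE 0.22). Ocln and Marveld2 are neighbours on chromosome 13, on the same strand and 43.2 kb apart in the RefSeq annotation. For Marveld2, Lsr and Ocln the value without control 4 was 0.81, 0.70 and 0.62, all close to that with it. The cytoplasmic scaffolds Tjp1 (ZO-1) and Cgn (cingulin) overlapped between groups, with values of 0.03 and -0.02 on the log2 scale (SE 0.10 and 0.15). In all, 5 of 12 tight junction genes had every knockout above every control, where 5.19% of all genes did.

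Pigment epithelium also makes several of these junction proteins, and 2 of its 14 marker genes (14.3%) were called higher and none lower, against 1.20% and 1.35% of all genes. Their median log2 fold change was 0.75, with 11 positive values and negative ones for Tyrp1 (-0.44), Pmel (-0.58) and Mlana (-0.86), and 1 of 14 had groups that did not overlap. They summed to 195 to 377 CPM in the knockouts and 123 to 257 CPM in the controls, with knockout 1 inside the controls' range and control 4 lowest, and none was at 0 in all libraries. Keratins and other markers of surface epithelium, none of them called, summed to 2.09 to 3.98 CPM in the knockouts and to 3.43 to 31.0 CPM in the controls, highest in control 2. The part of these tissues in the junction values was not tested.

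**Figure D3:**
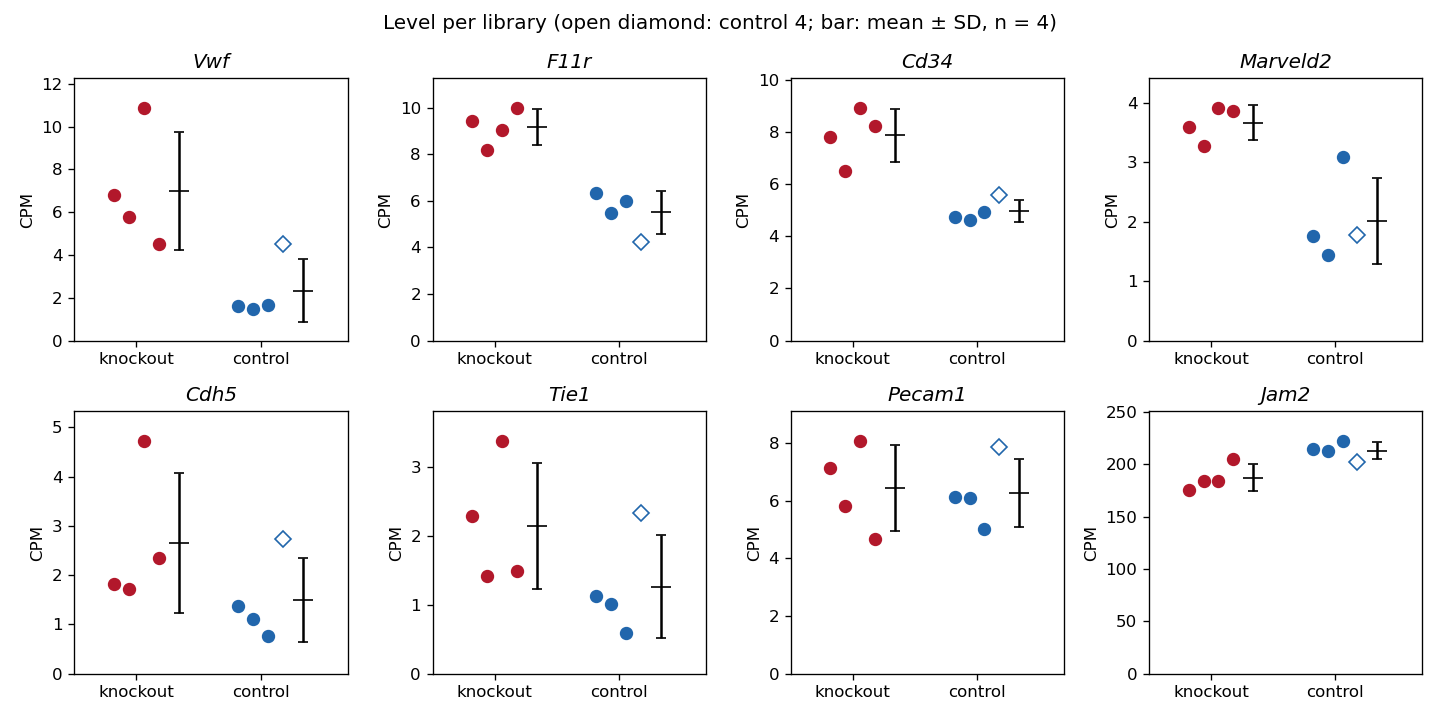
Each panel gives the CPM of 1 gene in each library on an axis from 0 (knockouts in red, controls in blue, control 4 as an open diamond), with mean ± SD, n = 4. F11r, Cd34 and Marveld2 are separated with control 4 among the controls or next to them, Vwf, Cdh5 and Tie1 have control 4 at knockout level, and Pecam1 and Jam2 overlap.

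All 9 genes of endothelial identity had positive values, of which those of Vwf and Cd34 passed the test. Vwf (Entrez gene 22371, GRCm38.p6 chromosome 6, 125552948 to 125686679) encodes von Willebrand factor, the clotting protein stored in endothelial granules and in platelets. It was at 6.78, 5.77, 10.9 and 4.52 CPM in knockouts 1 to 4 and at 1.63, 1.48, 1.66 and 4.53 CPM in controls 1 to 4. Controls 1 to 3 were tightly grouped and low, control 4 matched knockout 4, and knockout 3 was highest. The log2 fold change was 1.58 (adjusted p = 0.0444, SE 0.37), and 2.13 (adjusted p = 0.000498, SE 0.29) without control 4. Divided by Pecam1 in the same library, Vwf gave ratios of CPM of 0.952 to 1.35 in the knockouts. They were 0.242 to 0.331 in controls 1 to 3 and 0.575 in control 4, so the groups did not overlap. Divided by Cldn5, the ratios were 0.570 to 1.38 in the knockouts and 0.263 to 0.391 in controls 1 to 3. Control 4, at 0.860, lay within the knockouts' range, so for this ratio the groups overlapped.

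Platelets are the other main source of Vwf transcript. The 10 platelet and megakaryocyte genes in the table summed to 6.18 to 8.29 CPM in the knockouts and 5.86 to 9.08 CPM in the controls, mostly Gp1bb. Only 2 of the 10 could be tested and neither was called: Itga2b (log2 fold change -0.35, SE 0.34) and Gp1bb (0.05, SE 0.20). Itga2b was at 0.743 to 1.72 CPM over the 8 libraries, and Gp5 had 46 counts in all. Pf4, a defining platelet gene, was at no more than 0.385 CPM, and Gp9 and Gp6 had 1 count each over all 8 libraries. The part of platelets in the Vwf values was not tested.

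Cd34 (Entrez gene 12490, GRCm38.p6 chromosome 1, 194938821 to 194961292) encodes a sialomucin of the luminal endothelial surface and of blood progenitors. It was at 7.80, 6.49, 8.93 and 8.23 CPM in the knockouts and at 4.73, 4.62, 4.93 and 5.56 CPM in the controls. All knockouts exceeded all controls, and control 4 was the highest control but below every knockout. The means were 7.87 ± 1.03 and 4.96 ± 0.422 CPM, with a log2 fold change of 0.66 (adjusted p = 0.0444, SE 0.16), and of 0.72 without control 4 (adjusted p = 0.00854).

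Pecam1, the junctional adhesion molecule CD31 that is widely used to count vessels, did not separate. It was at 7.12, 5.82, 8.09 and 4.69 CPM in the knockouts and at 6.11, 6.10, 5.02 and 7.87 CPM in the controls, with knockout 4 the lowest of all (log2 fold change 0.04, adjusted p = 0.938, SE 0.20). Without control 4 the value was 0.16 (adjusted p = 0.602, SE 0.20). Icam2, an adhesion molecule of resting endothelium, was likewise mixed at 0.286 to 0.756 and 0.339 to 0.799 CPM (log2 fold change 0.16, SE 0.45).

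Cdh5, which encodes VE-cadherin, was at 1.81, 1.71, 4.73 and 2.34 CPM in the knockouts and at 1.38, 1.10, 0.770 and 2.72 CPM in the controls. Controls 1 to 3 were below all knockouts, control 4 was above 3 of them and knockout 3 was far above the rest. The log2 fold change was 0.82 (adjusted p = 0.278, SE 0.42) with all controls and 1.29 (adjusted p = 0.0362, SE 0.40) without control 4. It was 0.39 without knockout 3 and -0.06 without the 3 lens-rich libraries. That fit also drops knockout 3 and keeps controls 1 and 4 as its only controls, so lens content and the choice of libraries cannot be told apart. Emcn (endomucin) and Robo4, a guidance receptor that steadies the endothelial barrier, also had larger values once control 4 was left out. Emcn went from 0.93 (adjusted p = 0.243, SE 0.44) to 1.46 (adjusted p = 0.0306), and Robo4 from 0.63 (adjusted p = 0.548, SE 0.58) to 1.64 (adjusted p = 0.035). Robo4 was at 0.667 to 1.65 CPM in the knockouts, 0.251 to 0.555 CPM in controls 1 to 3 and 1.78 CPM in control 4, the highest library, and its value was -0.13 without the lens-rich libraries.

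Ly6c1, a surface protein of brain and retinal endothelium that monocytes also carry, was at 8.25, 9.01, 8.01 and 9.35 CPM in the knockouts and at 2.63, 5.40, 3.20 and 7.69 CPM in the controls. The knockouts were close together and above all controls, which spread widely (log2 fold change 0.87, adjusted p = 0.104, SE 0.27; 1.21 without control 4, adjusted p = 0.00283). Reads of its close relative Ly6c2 may be shared. Egfl7, a secreted protein of the vessel matrix, was at 4.86, 6.67, 4.73 and 5.52 CPM against 3.26, 4.21, 3.60 and 3.82 CPM, with separated groups and control 4 inside the controls (log2 fold change 0.55, adjusted p = 0.116, SE 0.18). Of the exonic bases of Egfl7, 11.2% lie in other genes as well. Summed over the 9 identity genes, the knockouts held 37.3 to 49.6 CPM, controls 1 to 3 held 20.5 to 24.1 CPM and control 4 held 36.1 CPM.

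Among genes of microglia and macrophages, 6 of 12 rose and none fell, with a median log2 fold change of 0.83; leukocytes can carry F11r and Pecam1 protein. Their sum was 133 to 175 CPM in the knockouts and 66.6 to 111 CPM in the controls, with control 4 the lowest library. Among all genes 1.20% were called higher and 1.35% lower. All 4 tested red cell genes fell, with sums of 1.68 to 4.03 against 10.1 to 14.5 CPM. Pericyte and smooth muscle genes, from the cells that wrap vessels, gave no call in 11 (median 0.17). Their sums, 697 to 941 against 668 to 809 CPM, were mostly Vtn (607 to 859 against 582 to 711 CPM). The other marker lists gave 2 of 12 genes of Müller glia and astrocytes called higher, 1 of 4 lymphatic endothelial genes (Pdpn, which glia and pigment epithelium also make), and none of 8 fibroblast, 9 rod and 15 lens genes. The part of these cells in the endothelial values was not tested.

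**Figure D4:**
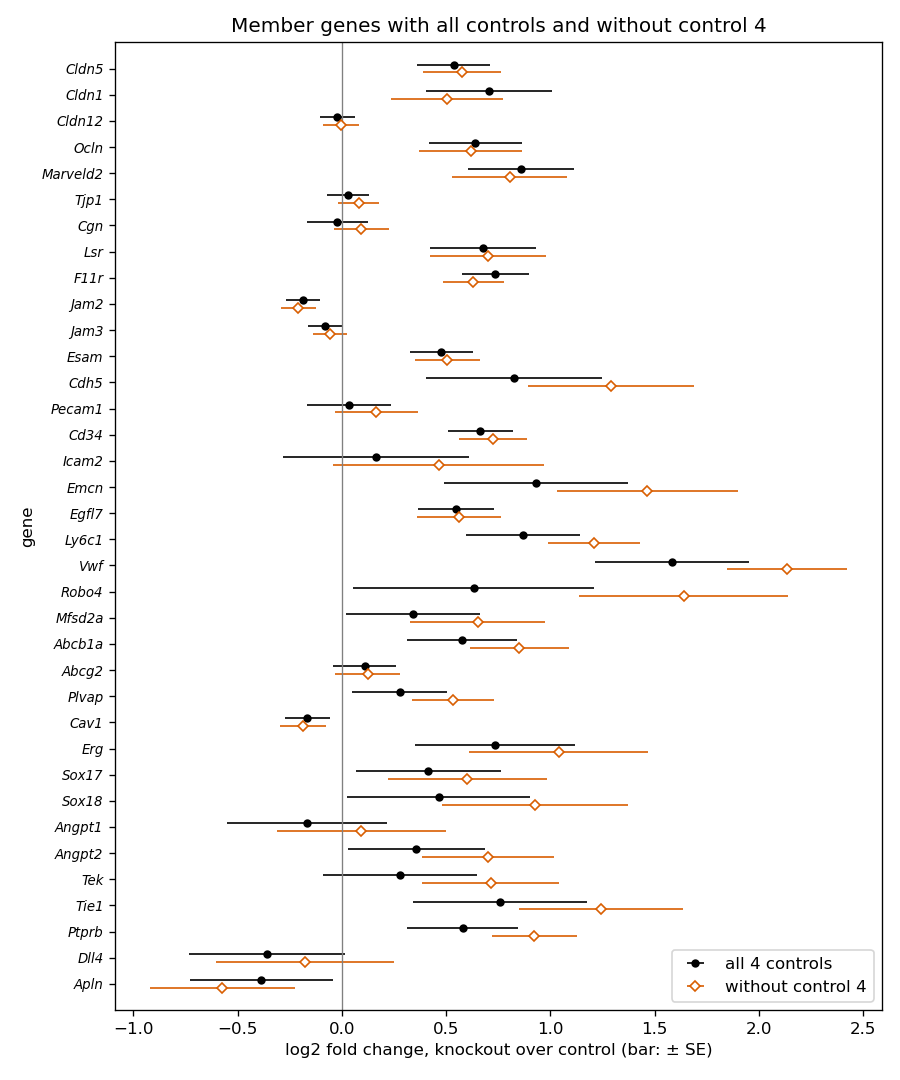
Points are log2 fold changes, knockout over control, with SE bars for the 36 tested genes, from all 8 libraries (black circles) and without control 4 (open orange diamonds). Leaving control 4 out moves Robo4 from 0.63 to 1.64 and Vwf, Emcn, Cdh5 and Tie1 less far to the right, and hardly moves Ocln, Marveld2, Lsr, Egfl7, Cldn12, Jam2 or Jam3.

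Promoter sequence was available from RefSeq (GRCm38.p6) for 24 of the 38 members. Those of F11r and Cd34 are shown because these genes passed the test with all libraries, and that of Tie1 as one of the genes that passed only without control 4. Each runs for the 250 bases before the annotated start, 5′ to 3′ on the gene's strand, at chr1:171437311-171437560 (plus strand), chr1:194938571-194938820 (plus strand) and chr4:118489850-118490099 (minus strand). Capitals mark AGGAAG or its reverse complement CTTCCT, letters that ETS factors such as Erg, a main regulator of endothelial genes, can bind.
F11r: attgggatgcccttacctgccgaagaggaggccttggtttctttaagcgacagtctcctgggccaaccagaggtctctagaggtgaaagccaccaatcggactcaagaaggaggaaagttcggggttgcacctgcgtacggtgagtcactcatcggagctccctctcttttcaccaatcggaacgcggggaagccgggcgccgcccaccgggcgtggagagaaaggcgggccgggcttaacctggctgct
Cd34: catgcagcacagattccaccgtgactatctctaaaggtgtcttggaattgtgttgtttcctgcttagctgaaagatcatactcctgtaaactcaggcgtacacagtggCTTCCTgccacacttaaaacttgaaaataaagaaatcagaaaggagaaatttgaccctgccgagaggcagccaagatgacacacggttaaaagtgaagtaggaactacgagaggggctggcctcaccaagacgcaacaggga
Tie1: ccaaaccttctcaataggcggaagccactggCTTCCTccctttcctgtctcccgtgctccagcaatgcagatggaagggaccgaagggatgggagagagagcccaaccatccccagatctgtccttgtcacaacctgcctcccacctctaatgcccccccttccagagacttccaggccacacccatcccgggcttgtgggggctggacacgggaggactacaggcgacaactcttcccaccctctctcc
The Cd34 match ends 136 bases and the Tie1 match 213 bases before the start, and the F11r window holds neither AGGAAG nor CTTCCT. Only these letters were searched, so other letters that ETS factors may bind are not marked. GC content was 60.0% for F11r, 46.4% for Cd34 and 60.4% for Tie1. Of the 24 members with a window, 11 (45.8%) held the letters in at least 1 window, against 32.3% of 27025 genes and 29.5% of 32851 windows. The letters AACAAT or ATTGTT, which SOX factors can bind and which do not overlap the ETS letters, were in 3 of 24 members (Emcn, Erg and Tek), against 10.9% of genes. A match describes the letters and is not a measured binding site.

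Of the 5 transport and caveola genes none passed. Abcb1a, the P-glycoprotein pump that returns drugs to the blood, was at 6.56, 5.80, 6.50 and 4.43 CPM in the knockouts and at 4.23, 3.20, 2.25 and 5.89 CPM in the controls. Every knockout was above controls 1 to 3, and control 4 lay within the knockouts' range (log2 fold change 0.58, adjusted p = 0.229, SE 0.26; 0.85 without control 4, adjusted p = 0.0233). Of its exonic bases 10.1% are shared with an opposite-strand gene. Mfsd2a, the lipid carrier that keeps vesicle traffic low at the barrier, was at 1.53 to 2.38 CPM against 0.909, 1.26, 1.29 and 2.25 CPM (log2 fold change 0.34, adjusted p = 0.557, SE 0.32).

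Plvap, which forms the diaphragms of fenestrated and leaky vessels and is high in the choriocapillaris, was at 5.94, 6.46, 5.68 and 5.06 CPM against 4.55, 3.11, 4.34 and 7.07 CPM. Control 4 was the highest library, and the log2 fold change was 0.28 (adjusted p = 0.498, SE 0.23), or 0.53 without it (adjusted p = 0.0719). The ratio of Plvap to Cldn5 in a library was 0.639 to 1.15 in the knockouts and 0.553 to 1.34 in the controls, with overlapping ranges. Cav1, the coat protein of caveolae, was at 61.4 to 87.5 and 80.1 to 90.9 CPM (log2 fold change -0.16, adjusted p = 0.384, SE 0.11), and Abcg2, another efflux pump, at 11.6 to 16.9 and 9.86 to 14.0 CPM (0.11, SE 0.15).

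The 3 transcription factors were low and none passed. Erg was at 1.16, 0.724, 1.23 and 0.915 CPM in the knockouts and at 0.627, 0.408, 0.431 and 0.947 CPM in the controls, a log2 fold change of 0.73 (adjusted p = 0.29, SE 0.38). Sox17 and Sox18, which act in arterial and lymphatic specification, had values of 0.41 (SE 0.35) and 0.46 (SE 0.44), with overlapping groups. Control 4 was the highest control for all 3. An opposite-strand gene shares 16.8% of the exonic bases of Sox17.

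In the angiopoietin-Tie pathway none of 5 genes passed. Of the ligands, Angpt1 was at 1.72, 1.39, 0.812 and 1.52 CPM in the knockouts and at 0.752, 1.07, 2.00 and 2.28 CPM in the controls, with no separation (log2 fold change -0.17, SE 0.38). Angpt2 was at 2.80, 2.03, 1.96 and 1.86 CPM against 0.941, 1.32, 1.73 and 2.75 CPM (0.36, adjusted p = 0.549, SE 0.33). The ratio of Angpt2 to Angpt1 was 1.62, 1.46, 2.41 and 1.23 in knockouts 1 to 4 and 1.25, 1.24, 0.862 and 1.21 in controls 1 to 4, so that only knockout 4 lay within the controls' range. For Angpt1, 14.2% of the exonic bases are shared with an opposite-strand gene.

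Of the receptors, Tek, which encodes Tie2, was at 3.45, 1.83, 4.28 and 3.17 CPM against 1.19, 2.11, 2.53 and 4.65 CPM, with control 4 highest of all (log2 fold change 0.28, adjusted p = 0.692, SE 0.37). Tie1, its partner receptor, was at 2.29, 1.42, 3.39 and 1.49 CPM against 1.13, 1.01, 0.585 and 2.34 CPM (0.76, adjusted p = 0.31, SE 0.42). Its value was 1.24 without control 4 (adjusted p = 0.0414). It was 0.0029 without the lens-rich libraries, a fit with controls 1 and 4 as its only controls. Ptprb, encoding VE-PTP, the phosphatase that dampens Tie2, was at 11.4, 8.14, 15.2 and 13.9 CPM against 7.52, 6.54, 5.24 and 13.3 CPM (0.58, adjusted p = 0.231, SE 0.27; 0.92 without control 4, adjusted p = 0.00705). Control 4 was the highest control for all 5 genes, and their sum was 14.8 to 25.7 CPM in the knockouts, 11.5 to 12.1 CPM in controls 1 to 3 and 25.3 CPM in control 4.

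Of the 4 sprouting genes Dll4 and Apln could be tested, and neither passed. Dll4, the Notch ligand of tip cells, was at 0.493 to 1.12 CPM in the knockouts and 0.723 to 1.42 CPM in the controls (log2 fold change -0.36, adjusted p = 0.603, SE 0.37). Apln, the peptide apelin of sprouting endothelium, was at 0.840 to 1.13 and 0.769 to 1.76 CPM (-0.39, adjusted p = 0.534, SE 0.34). The tip cell gene Esm1 had 8, 1, 1 and 0 counts in the knockouts and 0, 5, 1 and 0 in the controls. Aplnr, the apelin receptor of veins and sprouts, had 5, 3, 5 and 5 counts against 1, 0, 2 and 2, which do not overlap but are too few to test. At this depth a difference in Esm1 was not detectable.

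The place of control 4 differed between roles, as a description with no test. It was the highest control for 23 of the 36 tested members (63.9%), against 33.1% of all genes. By role this was 8 of 9 identity genes, all 5 angiopoietin-Tie genes and all 3 transcription factors, but 3 of 12 tight junction genes. Control 4 was also the highest control for 15 of 28 other tested endothelial genes and 5 of 9 rod genes, but for 0 of 12 microglia and macrophage genes. Its value was nearer the knockout mean than the mean of controls 1 to 3 for 61.1% of members and for 60.1% of all genes. Knockout 3 was the highest knockout for 7 of 9 identity genes and for 2 of 12 tight junction genes, where it was so for 24.0% of all genes. The same held for 8 of 9 rod genes and 14 of 28 other endothelial genes, but for 1 of 12 genes of Müller glia and astrocytes. With all controls, 8 of 36 members (22.2%) had groups that did not overlap, all with the knockouts higher; among all genes 5.19% had every knockout higher and 5.78% every knockout lower. Against controls 1 to 3 alone, 20 members had every knockout higher, where 16.0% of all genes did, and 1 had every knockout lower (Jam2), where 13.6% did.

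Further genes of the same pathways gave 1 call, lower, and none higher, where 1.20% of all genes were called higher and 1.35% lower. DESeq2 called 9 higher and 3 lower, against 3.67% and 4.59% of all genes. Of 28 other tested endothelial genes, none was called and 26 were positive, with a median log2 fold change of 0.30. Ramp2, the adrenomedullin co-receptor, was at 3.56 to 5.12 CPM in the knockouts and 1.69 to 2.61 CPM in the controls (0.90, adjusted p = 0.0513, SE 0.22), and Ly6a, a surface protein of endothelium and of interferon-exposed cells, had 0.85 (adjusted p = 0.0652, SE 0.23). Of 22 other transport genes 1 fell and none rose (median 0.29). The 1 was Cav2, the partner of Cav1 in caveolae, at 20.2, 25.4, 29.4 and 32.7 CPM in the knockouts and 39.6, 40.5, 44.8 and 35.5 CPM in the controls. All knockouts were below all controls (log2 fold change -0.58, adjusted p = 0.0444, SE 0.14), and the call ended without any library but knockout 4 and control 4 (adjusted p up to 0.135).

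Of 27 other junction genes none was called (median 0.05), and the smallest p-values were those of Cdh2, encoding N-cadherin (log2 fold change 0.47, adjusted p = 0.0652, SE 0.13), and Nectin1, an adherens junction protein (0.29, adjusted p = 0.113, SE 0.10). Of 20 other Tie and sprouting genes none was called (median 0.07). Notch1, the receptor for Dll4, had 0.44 (adjusted p = 0.0814, SE 0.13) with separated groups, and Jag1, a Notch ligand, had -0.36 (adjusted p = 0.11, SE 0.11). At an unadjusted p under 0.05 there were 4 of 27 junction, 6 of 28 endothelial, 8 of 22 transport and 3 of 20 Tie and sprouting genes, against 14 of 36 members and 21.3% of all genes. Without control 4, 16 of these pathway genes were called higher and 2 lower, where 10.5% of all genes were called higher and 8.18% lower.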

How the data were processed

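Per the submitters' processing notes, fastp, HISAT2 and HTSeq were used with the build mm10; their versions, the annotation and the strand setting are not stated there. The deposited counts are whole reads per gene, not normalized. The deposited FPKM values are counts scaled by the authors to gene length and library total, and served for levels between genes and as an alternative. Columns were matched to samples by title.

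Counts were fitted with edgeR 4.0.16 (R 4.3.3): filterByExpr (minimum count 10, minimum total 15), TMM scaling, quasi-likelihood test of knockout against control, adjustment by Benjamini and Hochberg over 16861 genes, threshold 0.05. The script was tested on simulated data. SE is the absolute log2 fold change over the square root of F. CPM use TMM-adjusted library sizes. Positions and promoters are RefSeq's (GRCm38.p6), and exon overlaps were taken from GENCODE M21. Members and lists were chosen with earlier results of these data known. Named genes are all members and, per pathway list, up to 4 called genes or else the 2 with the smallest p. Ratios were chosen with values known. Alternatives used DESeq2 1.42.0 and limma 3.58.1.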

Additional observations from a re-analysis of the deposited data

Results flagged for a closer look

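In 3 of the 86 groups of 4 libraries examined (36 members and 7 pathway genes, 2 groups each), 1 library lay far from the other 3 by Dixon's 95% limit, where chance gives about 1 in 20 groups. All 3 were control 4. It was at 4.53 CPM of Vwf, with the other controls at 1.48 to 1.66 CPM, and at 8.14 CPM of Ly6a, with the others at 4.55 to 5.02 CPM. It was at 188 CPM of Jag1, with the others at 255 to 261 CPM.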

How the results depend on the processing

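Genes called higher numbered 203, and 336 with no filter on low counts, 618 with DESeq2, 1456 with limma-voom and sample quality weights, 7 without the 3 lens-rich libraries, 128 with the lens sum as a covariate, and 62 to 1806 with each library left out in turn. Genes called lower numbered 227, and in the same order 354, 774, 1275, 8, 137 and 46 to 1403; they were 131 with library size only, 78 on log2(FPKM + 1) and 103 on log2(FPKM + 0.1). With these last 3 scalings 61.2%, 65.8% and 64.5% of calls were higher, against 47.2%.

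Members called higher (3) numbered 8 with DESeq2, 10 with quality weights, 0 without lens-rich libraries, 0 with the covariate, and 0 to 12 with each library left out, 0 in every case but control 4. The share of all genes called higher was 1.20% in the main fit, 3.67% with DESeq2 and 8.64% with quality weights. It was 0.0403% without lens-rich libraries, 0.759% with the covariate and 10.5% without control 4. The log2 fold changes of F11r, Cd34 and Vwf were 0.75, 0.70 and 1.60 with the covariate, and 0.63 to 0.81, 0.60 to 0.74 and 1.29 to 2.13 with each library left out. None was called lower in any setting. Pathway genes called higher (0) numbered 1 with upper quartile, 1 with library size only, 4 with no filter, 2 with robust dispersions, 9 with DESeq2, 16 with quality weights, 1 in each FPKM setting and 0 to 16 with each library left out. Pathway genes called lower (1) numbered 3 with DESeq2, 2 with quality weights, 0 in the FPKM and lens settings and 0 to 2 with each library left out.

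With the replicate number as a block, 121 genes were higher and 107 lower, 0 members were called, and 0 pathway genes were higher and 0 lower. Whether the numbers pair the libraries is not given in the labels. Correlations of deviations between libraries of the same number were 0.213, -0.041, 0.121 and 0.006, too few values to settle it.

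Directions turned, none of them a call, without lens-rich libraries for Tjp1 (-0.079), Cdh5 (-0.064), Pecam1 (-0.24), Icam2 (-0.40), Robo4 (-0.13), Sox18 (-0.16), Angpt1 (0.029), Tek (-0.048) and Apln (0.24). They turned with the covariate for Cldn12 (0.0019) and Tjp1 (-0.056), and with quality weights for Cgn (0.013) and Angpt1 (0.078). With each library left out they ranged from -0.065 to 0.0063 for Cldn12, -0.046 to 0.082 for Tjp1, -0.11 to 0.0945 for Cgn, -0.094 to 0.16 for Pecam1, -0.022 to 0.18 for Abcg2 and -0.39 to 0.094 for Angpt1. The cause was not tested. Cd34 missed the threshold with limma-voom (adjusted p = 0.0508) and Vwf on log2(FPKM + 1) (limma, adjusted p = 0.0724). Genes under 1 CPM rest on few counts.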
